A study of Homo sapiens with 4 samples.

Results

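The genes described here are 54 chromatin modifiers and remodellers, taken as a list of gene names out of the 57979 genes with values in the table. They were chosen by name and family, with earlier results of these libraries known, and all 54 were found in the table and passed the filter of an average level above 1 FPKM (fragments of a gene per length of transcript and per sequenced library size). The list holds 7 histone H3 lysine 4 (H3K4) methyltransferases, 3 H3K36 methyltransferases, 11 histone demethylases, 6 histone acetyltransferases, 3 histone deacetylases, 8 CHD remodellers, 10 subunits of SWI/SNF and ISWI remodellers, 3 subunits of Polycomb repressive complex PRC2 and 3 enzymes of DNA methylation.

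Chromatin modifiers add or remove small chemical groups on histone tails and on DNA, and remodellers use ATP to slide, evict or exchange nucleosomes. Methylation of H3K4 and acetylation of histones go with active promoters and enhancers, whereas methylation of H3K27 by PRC2 and removal of acetyl groups by deacetylases go with silent ones. Many of these genes are large, and several of them (ARID1A and ARID2 among others) are known for recurrent mutations in liver cancer.

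The question of the study was what the loss of TXNDC9, a thioredoxin domain protein, does in hepatocellular carcinoma cells. Polyadenylated RNA was sequenced from 2 wild-type (WT) libraries and 2 TXNDC9 knockout (KO) libraries, all 4 labelled as HepG2, a human line derived from a liver tumor and grown in serum-supplemented DMEM. The knockout used CRISPR-Cas9 from a lentiviral plasmid with guides against TXNDC9, in infected and sorted cells. The sources used here do not say whether the knockout cells were 1 clone, whether the sequenced wild-type cells carried an empty vector, or whether the 2 libraries of a group came from separate cultures, so the p-values measure only the spread between these libraries.

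Before the results, 2 checks of the labels are given. All 10 hepatocyte-like markers (ALB, AFP, APOA1, APOB, TTR, SERPINA1, FGB, TF, HNF4A and FOXA2), which HepG2 cells are known to express, were below 1 FPKM in every library, and between 5 and 7 of them were listed at 0. Their summed level was 0.446 and 0.733 FPKM in the WT libraries and 0.0479 and 0.174 FPKM in the KO libraries, and the highest single value was AFP in WT replicate 2 at 0.449 FPKM. These values go against the label, so the samples are called here the libraries labelled HepG2, and no other cell type is named for them. The fibroblast markers summed to 34.5 to 54.1 FPKM, with COL1A2 at 0 in all 4 libraries. The immune markers summed to 4.13 to 7.53 FPKM, nearly all of it CD68, with CD3E and MS4A1 at 0. The endothelial markers summed to 0.803 and 1.22 FPKM in WT and to 4.41 and 3.42 FPKM in the KO libraries, nearly all of it CDH5, with KDR at 0. The part of cell identity in the results below was not tested.

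TXNDC9 (ENSG00000115514, chromosome 2 from 99318982 to 99340702, minus strand, hg38) stood at 35.1 and 37.3 FPKM in WT and at 21.9 and 27.6 FPKM in the KO libraries. The groups did not overlap, and the log2 fold change of -0.55 (SE 0.14) had a limma adjusted p of 0.0145, which did not pass the threshold of 0.01. Its sign turned to 0.12 when each library was rescaled to sum to the same total (TPM, the transcript share scale). The mRNA level does not measure the protein.

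The libraries of a group resembled each other, with correlations of log2 levels over the 13246 tested genes of 0.976 and 0.98 within groups and of 0.859 to 0.897 between them. FPKM summed to 805816 and 971102 in WT and to 535973 and 568279 in the KO libraries. Rescaling to TPM therefore moved the all-gene median of the log2 fold change from -0.09 to 0.59, while centring each library on its median moved it to -0.23. These steps shift all genes of a library alike, so the members are read against the all-gene median: they lay 0.68 above it on the deposited scale, and 0.26 above it after the correction for length and base composition given further on. The values are not read counts, so the depth is unknown, and only the spread between libraries measures the error.

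Of the 54 members, 17 rose in the TXNDC9 knockout libraries, 5 fell and 32 were not called, where a call required a limma adjusted p under 0.01 and at least a 2-fold difference on log2(FPKM + 0.1). Among all 13246 tested genes, 14.2% were called higher and 15.3% were called lower, against 31.5% and 9.26% of the members. The shares of all tested genes are also the background of the counts by role below, before transcript length is considered. The median log2 fold change of the members was 0.60, beside -0.09 for all tested genes. Both knockout values lay above both wild-type values in 35 members and below them in 10, and the groups overlapped in 9, beside 5318, 6086 and 1842 of all tested genes. Between replicates, the members' median log2 difference was -0.05 in WT and 0.02 in KO, and that of all tested genes was 0.09 and 0.06, although single members such as CHD7, CHD8 and KDM6B differed more. In bulk RNA, fewer cells that express a gene and less RNA of it per cell cannot be told apart.

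The calls depended on the libraries in the fit. Without either knockout library no gene of the whole table passed the adjusted p, although 7129 genes without TXNDC9-KO replicate 1 and 7307 without TXNDC9-KO replicate 2 had an unadjusted p under 0.05. In those fits 32 and 31 members had an unadjusted p under 0.05, with the lowest adjusted p among members at 0.0237 and 0.0232, while 19 and 17 members were still at least 2-fold higher and 3 and 5 at least 2-fold lower. Without WT replicate 1 the calls were 22 higher and 5 lower. Without WT replicate 2 they were 17 higher and 2 lower, the 2 being KMT2B and KAT2A.

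**Figure D1:**
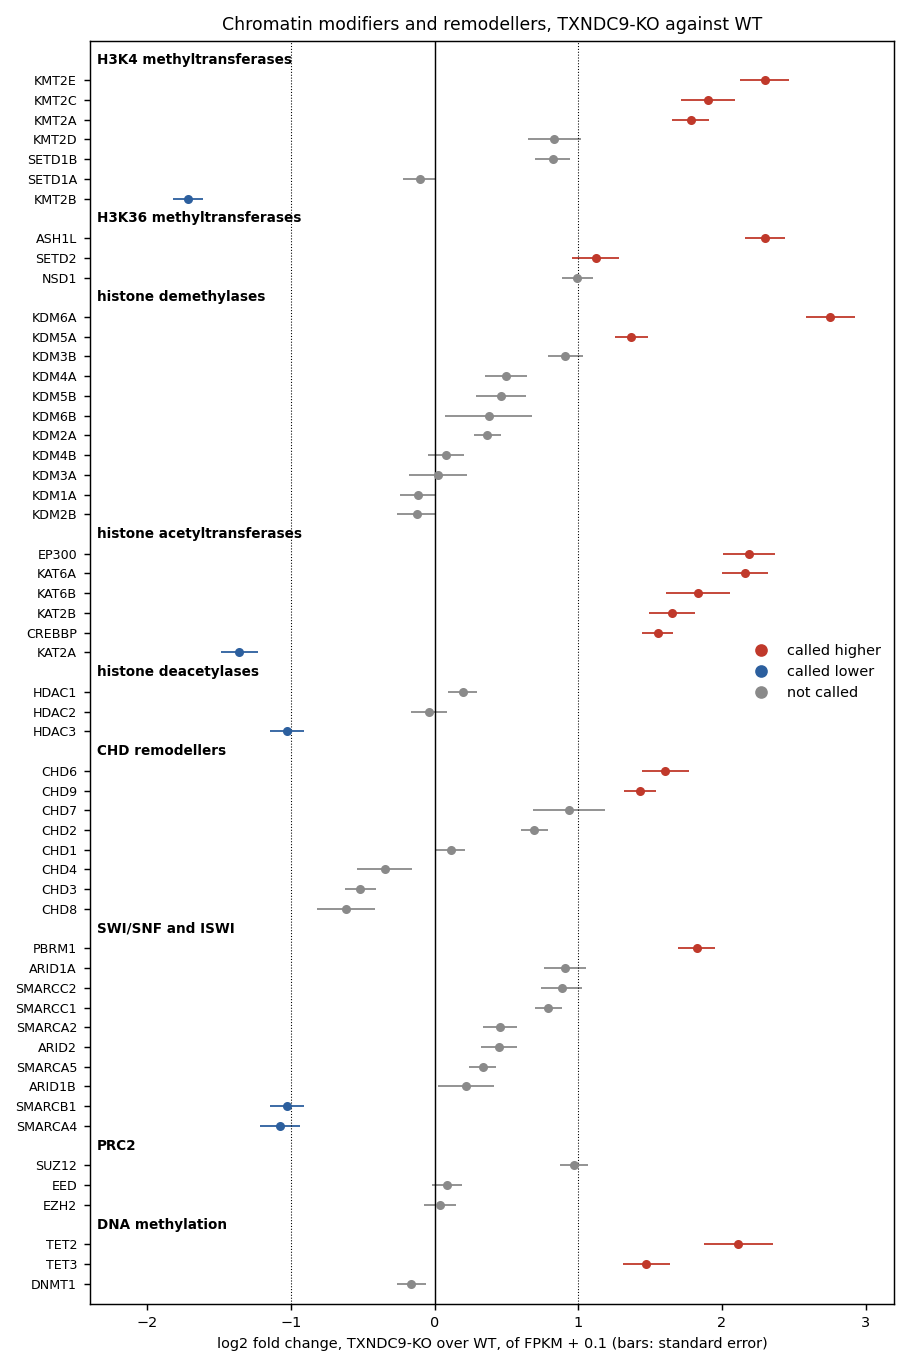
Log2 fold change of each of the 54 members, TXNDC9-KO over WT, of FPKM + 0.1 (horizontal axis), grouped by role, with bars for the standard error of limma (2 libraries a group) and dotted lines at 2-fold. The 17 members called higher lie between 1.12 and 2.75, the 5 called lower between -1.72 and -1.03, and the members of a role often lie on both sides of 0.

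The members that rose were low in the WT libraries, and those that fell were high. The calls were made from these same values, so this contrast is a description and not a separate result. On the FPKM scale, which divides by length and so allows levels of different genes to be set side by side, the 17 members called higher had wild-type means of 0.646 to 5.80 FPKM, with a median of 2.49 FPKM, and knockout means of 3.13 to 18.9 FPKM. The 5 members called lower had wild-type means of 20.1 to 114 FPKM and knockout means of 6.05 to 51.2 FPKM. The 32 members not called spanned wild-type means of 2.43 to 211 FPKM. Only TET2 and KAT6B had a wild-type mean under 1 FPKM, and both passed the filter through their knockout values, so that the filter alone asked them to be higher there.

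Another 10 members, all chosen for naming after their values were seen, passed the adjusted p of 0.01 without reaching 2-fold. KMT2D, SETD1B, NSD1, KDM3B, CHD2, SMARCC1, SMARCC2, ARID1A and SUZ12 had log2 fold changes above 0, and CHD3 had one of -0.52. With them, 26 members passed the adjusted p with a higher and 6 with a lower level in the knockout.

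The H3K4 methyltransferases put methyl groups on promoters and enhancers through the KMT2 and SETD1 families. Of these 7 genes, KMT2A, KMT2C and KMT2E rose, KMT2B fell, and KMT2D, SETD1A and SETD1B were not called. KMT2A, also known as MLL and needed for HOX gene expression, stood at 3.34 and 3.93 FPKM in WT and at 12.6 and 12.8 FPKM in the KO libraries. Its groups lay well apart, and the log2 fold change was 1.78 (SE 0.13, limma adjusted p 0.000512). KMT2B, its closest relative, went the other way, at 19.9 and 20.4 FPKM in WT and at 6.29 and 5.81 FPKM in the KO libraries. Its log2 fold change was -1.72 (SE 0.10, limma adjusted p 0.000496), the largest fall among the members. KMT2E, a relative in the same gene family without clear methyltransferase activity of its own, stood at 3.48 and 2.54 FPKM against 15.3 and 14.7 FPKM, a log2 fold change of 2.30 (SE 0.17, limma adjusted p 0.000537). SETD1A, the catalytic subunit of a complex that makes most H3K4 trimethylation at promoters together with SETD1B, had overlapping groups, at 12.7 and 11.0 FPKM in WT and at 10.9 and 11.1 FPKM in the KO libraries (log2 fold change -0.10, limma adjusted p 0.457).

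The 3 H3K36 methyltransferases mark the bodies of transcribed genes, and 2 of them rose. ASH1L was low in both WT libraries, at 2.81 and 2.42 FPKM, and stood at 12.4 and 14.1 FPKM in the KO libraries, a log2 fold change of 2.30 (SE 0.14, limma adjusted p 0.000496). SETD2, which makes H3K36 trimethylation, had a log2 fold change of 1.12 (SE 0.16, limma adjusted p 0.00205), and its call was lost without WT replicate 2. NSD1, the enzyme lost in Sotos syndrome, had values of 11.9 and 13.2 FPKM in WT and of 24.4 and 25.9 FPKM in the KO libraries. Its groups did not overlap and its log2 fold change of 0.99 (SE 0.11, limma adjusted p 0.000858) lay just short of the 2-fold minimum, so it was not called, and it was called without WT replicate 2.

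Histone demethylases remove methyl groups from lysines. Of the 11, 2 rose (18.2%) and none was called lower, beside 14.2% and 15.3% of all tested genes. KDM6A, also known as UTX, which removes H3K27 methylation, had the largest rise of all 54 members. It is encoded on chromosome X from 44873188 to 45112779 and stood at 1.53 and 1.42 FPKM in WT and at 11.8 and 9.32 FPKM in the KO libraries. The knockout level was 6.74-fold higher on the FPKM + 0.1 scale, with a log2 fold change of 2.75 (SE 0.17, limma adjusted p 0.000496). KDM5A, which removes H3K4 methylation, had a log2 fold change of 1.37 (SE 0.11, limma adjusted p 0.000562). KDM6B, the paralog of KDM6A with the same substrate, was split between its knockout libraries, at 4.35 and 2.34 FPKM, against 2.48 and 2.38 FPKM in WT (log2 fold change 0.38, SE 0.30, limma adjusted p 0.307). The sign of KDM6B rested on TXNDC9-KO replicate 1, without which its log2 fold change was -0.06.

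The other demethylases were not called. KDM3A, which removes H3K9 methylation and is induced by hypoxia, had overlapping groups of 7.27 and 10.7 FPKM against 9.50 and 8.48 FPKM (log2 fold change 0.02, SE 0.20, limma adjusted p 0.924). KDM2B, which recruits a Polycomb complex to CpG islands, also had overlapping groups, at 15.9 and 13.4 FPKM against 14.3 and 12.5 FPKM (log2 fold change -0.13, SE 0.13, limma adjusted p 0.434). KDM1A, the demethylase known as LSD1, had the highest level of all the members, at 198 and 225 FPKM in WT and at 194 and 195 FPKM in the KO libraries, and was not called (limma adjusted p 0.43).

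Histone acetyltransferases were the role in which every member was called, 5 of 6 higher (83.3%) and 1 lower (16.7%). Their canonical transcripts had a median of 8546.5 nt, and of all tested genes of 8000 nt or more 44.3% were called higher. After the correction for length and base composition given further on, KAT6B (0.99) and KAT2A (-0.96) were no longer called. EP300 and CREBBP, the coactivators that acetylate enhancers, KAT6A and KAT6B of the MYST family, and KAT2B rose, while KAT2A fell. EP300 stood at 2.87 and 2.12 FPKM in WT and at 10.9 and 12.4 FPKM in the KO libraries. Its log2 fold change was 2.19 (SE 0.18, limma adjusted p 0.00055), beside 1.55 for CREBBP (SE 0.11), 2.16 for KAT6A (SE 0.16) and 1.83 for KAT6B (SE 0.22). KAT2A, also known as GCN5 and the acetyltransferase of the SAGA complex, was among the most abundant members in the WT libraries, at 104 and 125 FPKM, and stood at 43.5 and 45.2 FPKM in the KO libraries. Its log2 fold change was -1.36 (SE 0.13, limma adjusted p 0.000664). KAT2B, also known as PCAF, which can take the place of KAT2A in that complex, stood at 1.56 and 1.46 FPKM against 4.85 and 5.06 FPKM, a log2 fold change of 1.65 (SE 0.16, limma adjusted p 0.000712).

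Deacetylases remove the acetyl groups again. HDAC3, the catalytic subunit of the NCOR corepressor complexes, fell from 61.1 and 70.6 FPKM to 30.9 and 33.4 FPKM, with a log2 fold change of -1.03 (SE 0.12, limma adjusted p 0.000994). HDAC1 and HDAC2, which work as a pair in the SIN3, NuRD and CoREST complexes, were not called. HDAC1 stood at 57.1 and 58.7 FPKM in WT and at 64.6 and 68.2 FPKM in the KO libraries, and its groups did not overlap (log2 fold change 0.20, SE 0.10, limma adjusted p 0.13). HDAC2 had overlapping groups of 138 and 161 FPKM against 142 and 148 FPKM (log2 fold change -0.04, SE 0.13, limma adjusted p 0.79).

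**Figure D2:**
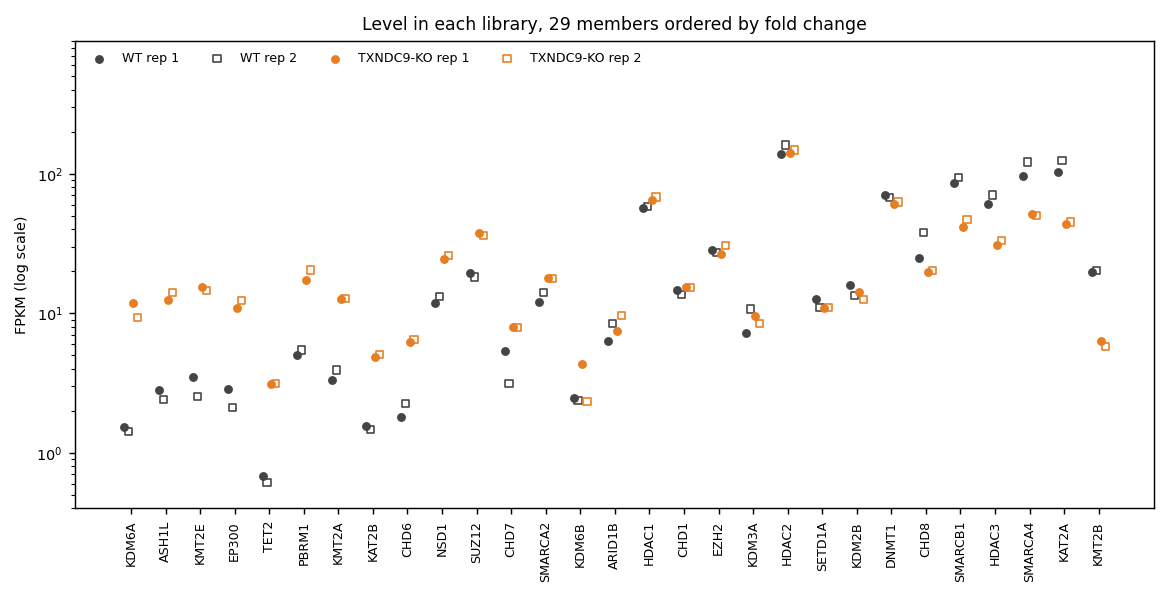
FPKM (vertical log axis) of 29 members in each library, ordered by fold change, with circles for replicate 1, squares for replicate 2, grey for WT and orange for TXNDC9-KO. The members on the left, such as KDM6A (6.74-fold) and ASH1L (4.92-fold), are low in WT and higher in TXNDC9-KO, and those on the right, such as KAT2A and SMARCA4, are high in WT.

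CHD remodellers move nucleosomes and carry chromodomains, which bind methylated histone tails. Of the 8, CHD6 and CHD9 rose and none fell at 2-fold. CHD6 stood at 1.82 and 2.24 FPKM in WT and at 6.26 and 6.45 FPKM in the KO libraries, a log2 fold change of 1.61 (SE 0.16, limma adjusted p 0.000759), and that of CHD9 was 1.43 (SE 0.11). CHD7, mutated in CHARGE syndrome, varied between its wild-type libraries, at 5.38 and 3.16 FPKM, and stood at 8.05 and 7.93 FPKM in the KO libraries. Its groups did not overlap, but its log2 fold change of 0.94 (SE 0.25, limma adjusted p 0.0183) was not called, and it was 1.31 and called without WT replicate 1, 0.56 without WT replicate 2 and 0.10 after the correction for length and base composition. CHD8, an autism-associated remodeller, also varied between the wild-type libraries, at 25.0 and 37.9 FPKM, and stood lower in both KO libraries, at 19.8 and 20.2 FPKM (log2 fold change -0.62, SE 0.20, limma adjusted p 0.0362). Without WT replicate 2 its log2 fold change was -0.32. CHD1, which binds H3K4 trimethylation, was the closest to 0 among them, at 14.7 and 13.6 FPKM against 15.4 and 15.3 FPKM (log2 fold change 0.11, SE 0.10, limma adjusted p 0.354).

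The SWI/SNF complexes hold 1 of the ATPases SMARCA2 and SMARCA4, the core subunit SMARCB1 and either ARID1A, ARID1B or, in the PBAF form, ARID2 and PBRM1. Of the 10 genes of this role, PBRM1 rose (10.0%) and SMARCA4 and SMARCB1 fell (20.0%), beside 14.2% and 15.3% of all tested genes. The other 7 of this role were not called. PBRM1, a subunit specific to PBAF and a tumor suppressor in kidney cancer, stood at 5.04 and 5.45 FPKM in WT and at 17.3 and 20.4 FPKM in the KO libraries (log2 fold change 1.82, SE 0.13, limma adjusted p 0.000512). SMARCA4, also known as BRG1, stood at 96.2 and 121 FPKM in WT and at 51.9 and 50.5 FPKM in the KO libraries. Its log2 fold change was -1.08 (SE 0.14, limma adjusted p 0.00143). SMARCB1, lost in rhabdoid tumors, stood at 86.5 and 94.7 FPKM against 41.7 and 47.1 FPKM, a log2 fold change of -1.03 (SE 0.12, limma adjusted p 0.000967).

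SMARCA2, the alternative ATPase also known as BRM, was not called. Its values were 12 and 14 FPKM in WT and 17.8 and 17.7 FPKM in the KO libraries, with no overlap and a log2 fold change of 0.45 (SE 0.12, limma adjusted p 0.0159). ARID1B had overlapping groups, at 6.29 and 8.5 FPKM against 7.51 and 9.68 FPKM (log2 fold change 0.22, SE 0.20, limma adjusted p 0.358). Without WT replicate 2, HDAC3, SMARCA4 and SMARCB1 no longer reached 2-fold, at log2 fold changes of -0.92, -0.91 and -0.96.

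None of the PRC2 subunits was called. EZH2, the H3K27 methyltransferase, had overlapping groups of 28.5 and 27.4 FPKM against 26.8 and 30.7 FPKM (log2 fold change 0.04, SE 0.11, limma adjusted p 0.795). SUZ12, a scaffold subunit, was higher in both KO libraries, at 37.4 and 36.2 FPKM against 19.3 and 18.2 FPKM, and its log2 fold change of 0.97 (SE 0.10, limma adjusted p 0.000748) lay under the 2-fold minimum. EED, which binds the H3K27 mark, had overlapping groups, with a log2 fold change of 0.08 (limma adjusted p 0.494).

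Of the DNA methylation enzymes, TET2 and TET3, which oxidize methylcytosine as a step of its removal, rose, and DNMT1, which copies methylation after replication, was not called. TET2 was the lowest of the 54 members in the WT libraries, at 0.683 and 0.61 FPKM, and stood at 3.12 and 3.13 FPKM in the KO libraries (log2 fold change 2.11, SE 0.24, limma adjusted p 0.000981). TET3 had a log2 fold change of 1.47 (SE 0.16, limma adjusted p 0.0009). DNMT1 stood at 71.0 and 67.4 FPKM in WT and at 60.9 and 62.9 FPKM in the KO libraries, without overlap (log2 fold change -0.16, SE 0.10, limma adjusted p 0.203).

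**Figure D3:**
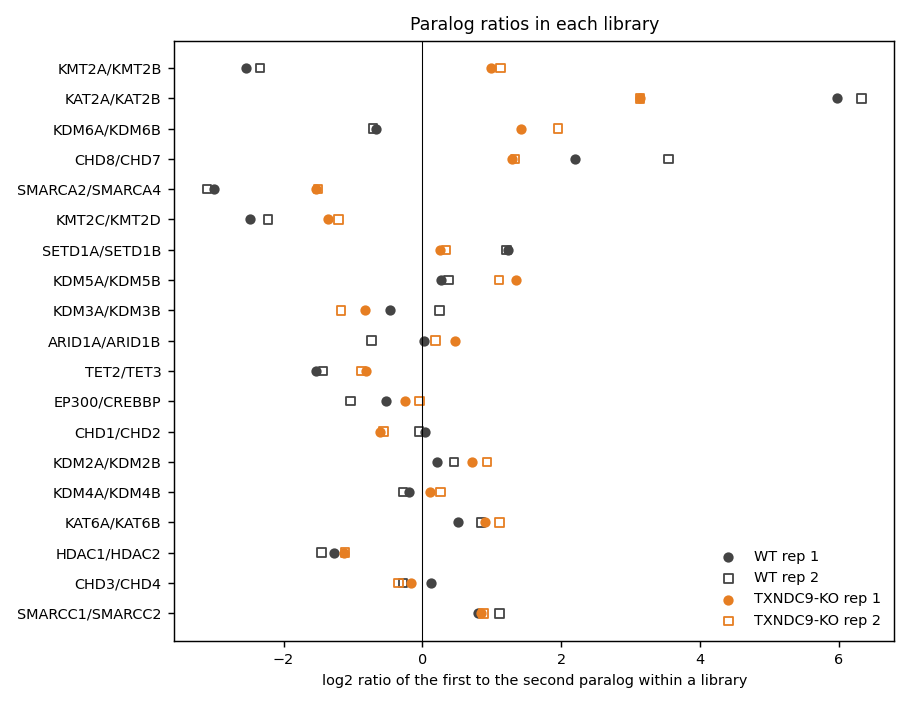
Log2 ratio of the first to the second gene of each of 19 paralog pairs (horizontal axis) in each library, with circles for replicate 1, squares for replicate 2, grey for WT and orange for TXNDC9-KO. KMT2A/KMT2B crosses from -2.54 and -2.34 in WT to 0.99 and 1.12 in TXNDC9-KO, and KAT2A/KAT2B drops from 5.97 and 6.33 to 3.14 and 3.13.

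Many members come in pairs of paralogs that can stand in for each other, and a ratio within a library does not move with the scaling of that library. Over 19 such pairs, the log2 ratio of the levels (FPKM + 0.1) did not overlap between the groups in 17. It overlapped in 2, CHD3/CHD4 and SMARCC1/SMARCC2. Lack of overlap was common in these libraries: of all 13246 tested genes, taken singly, the groups overlapped in only 1842. No share over other pairs of genes was computed. With 2 libraries against 2, the exact two-sided permutation test cannot give a p below 0.333, so the ratios are given as a description. Both genes were called higher in 3 pairs, the genes were called in opposite directions in 2, only 1 gene was called in 4, and neither in 10.

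The pairs with opposite calls were KMT2A/KMT2B and KAT2A/KAT2B, which also had the largest changes. KMT2A made up 14.4% and 16.2% of the summed FPKM of KMT2A and KMT2B in WT and 66.7% and 68.7% in the KO libraries. KMT2B was thus the more abundant of the pair in WT and KMT2A in the KO libraries, and the log2 ratio changed by 3.50. KAT2A made up 98.5% and 98.8% of its pair in WT and 90% and 89.9% in the KO libraries, so it remained the more abundant in all 4 libraries while the log2 ratio changed by -3.01.

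In the 3 pairs with the next largest changes, at most 1 gene was called. KDM6A made up 38.1% and 37.3% of KDM6A and KDM6B in WT and 73.1% and 80.0% in the KO libraries, a change of the log2 ratio of 2.38. CHD8 made up 82.3% and 92.3% of CHD8 and CHD7 against 71.2% and 71.8%, a change of -1.55 that was -2.23 without WT replicate 1 and -0.88 without WT replicate 2. SMARCA2 made up 11.1% and 10.4% of the SWI/SNF ATPase mRNA of the pair in WT and 25.6% and 26.0% in the KO libraries, a change of 1.53, and SMARCA4 remained the more abundant.

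The upstream sequences of the pairs with opposite calls are shown because their genes were called in opposite directions although they encode close relatives. They come from RefSeq (GRCh38.p14), run 5′ to 3′ on the strand of the gene, and stop before the first base of the gene in GENCODE. Capitals mark GGGCGG, the GC box bound by SP1, or its reverse complement. The stretches are chr11:118436242-118436455 on the plus strand for KMT2A, chr19:35717753-35717972 on the plus strand for KMT2B, chr17:42121368-42121617 on the minus strand for KAT2A and chr3:20040196-20040445 on the plus strand for KAT2B.
KMT2A: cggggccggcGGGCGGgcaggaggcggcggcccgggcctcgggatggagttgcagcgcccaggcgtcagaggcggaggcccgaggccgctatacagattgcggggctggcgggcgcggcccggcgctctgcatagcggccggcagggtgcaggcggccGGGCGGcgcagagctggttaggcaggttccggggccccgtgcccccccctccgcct
KMT2B: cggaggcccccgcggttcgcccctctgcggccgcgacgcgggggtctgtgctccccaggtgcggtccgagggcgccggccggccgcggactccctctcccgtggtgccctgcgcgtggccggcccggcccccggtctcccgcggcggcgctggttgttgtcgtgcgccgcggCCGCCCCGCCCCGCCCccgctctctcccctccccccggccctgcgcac
KAT2A: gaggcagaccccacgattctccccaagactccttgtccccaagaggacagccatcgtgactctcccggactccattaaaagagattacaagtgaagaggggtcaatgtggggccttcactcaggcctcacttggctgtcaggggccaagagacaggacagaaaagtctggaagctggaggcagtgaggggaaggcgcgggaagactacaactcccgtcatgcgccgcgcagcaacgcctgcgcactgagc
KAT2B: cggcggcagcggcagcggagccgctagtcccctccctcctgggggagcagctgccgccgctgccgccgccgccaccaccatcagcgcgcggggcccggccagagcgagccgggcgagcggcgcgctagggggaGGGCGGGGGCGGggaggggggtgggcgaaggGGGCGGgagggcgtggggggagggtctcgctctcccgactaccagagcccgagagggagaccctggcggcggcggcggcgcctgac
The stretch of KMT2A holds 2 GC boxes, that of KMT2B 3 that overlap each other, that of KAT2A 0 and that of KAT2B 3. The G and C content is 79.4% for KMT2A, 83.2% for KMT2B, 58.8% for KAT2A and 80.8% for KAT2B, so the KAT2 pair differs in base composition upstream and the KMT2 pair does so much less.

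Over the windows of 300 bases that RefSeq start sites give (250 bases before and 50 after), 47 of the 54 members had 72 windows. Each of 5 motifs was searched on both strands, overlaps included. GGGCGG was in 75.0% of the member windows and in 45.0% of all 35116 windows. CACGTG, the E-box bound by MYC and its relatives, was in 11.1% against 7.26%. CCAAT was in 33.3% against 34.6%, TATAAA in 1.39% against 11.5%, and TGACGTCA in none against 1.85%. Per gene, CACGTG was in a window of 8 of the 47 members, beside 8.77% of all genes. GGGCGG was in a window of 39 of them, beside 48.3% of all genes, and CCAAT of 20, beside 39.7%. Of the 15 members called higher with a window and the 5 called lower, 5 and 0 held CACGTG, 14 and 4 held GGGCGG, and 5 and 1 held CCAAT. A match says only that the letters are present, and these counts carry no test.

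The members are long transcripts, and length went with the fold change across the whole table. The canonical transcripts of the 54 members had a median of 7886 nt, against 2866 nt for all tested genes. The members called higher had a median of 9589 nt (4410 to 16860 nt) and 44.3% G and C, and the members called lower had a median of 5191 nt (1933 to 8485 nt) and 59.9% G and C. Spearman's rho of the log2 fold change with transcript length was 0.53 over the 54 members and 0.49 over 13112 genes, and with G and C content it was -0.46 in both sets. These are correlations across genes of the same 4 libraries, and genes are not independent replicates.

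Length bands, chosen after the values were seen, show the same. Among the 26 members with transcripts of 8000 nt or more, 13 were called higher and 1 (KMT2B) lower, while 44.3% of all 938 tested genes of that length were called higher and 2.56% lower. The median log2 fold change in that band was 1.06 for the members and 0.90 for all genes. Of the 22 members from 4000 to 8000 nt, 4 were called higher and 2 lower, beside 26.9% and 4.55% of all genes there, at a median of 0.37 against 0.54. Of the 6 shorter members, none was called higher and 2 lower (KAT2A and HDAC3), beside 5.90% and 20.8% of all genes there. Most of the higher calls thus fell in the band where such calls were common among all genes.

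**Figure D4:**
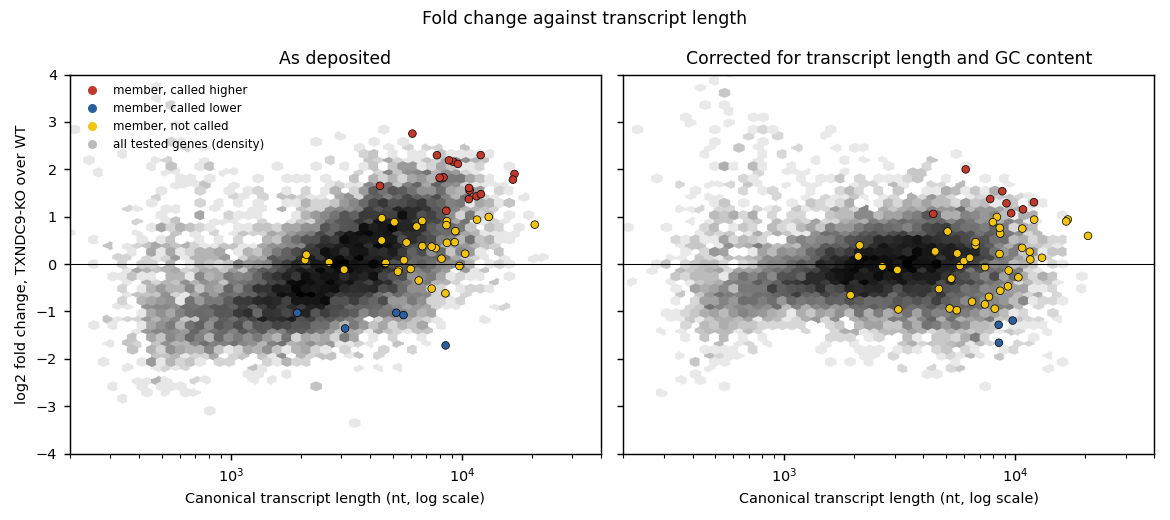
Log2 fold change (vertical axis) against canonical transcript length in nt (log axis), with all tested genes in grey hexagons and the 54 members as points coloured by call, as deposited on the left and after each library was corrected for length and G and C content on the right. On the left the fold change climbs with length for all genes and for the members (rho 0.53), and on the right 8 members are called higher and 3 lower.

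After a loess curve of transcript length and G and C content was removed from each library, 8 members were called higher, namely ASH1L, CREBBP, EP300, KAT2B, KAT6A, KDM6A, KMT2E and TET2, all among the 17 above. The background of that fit was 6.38% of 13112 genes higher and 7.72% lower. The members' median log2 fold change was then 0.19. KDM6A kept the largest value, at 2.0 (limma adjusted p 0.0018), followed by EP300 at 1.54 (limma adjusted p 0.00218) and KMT2E at 1.37 (limma adjusted p 0.00234). All 17 members called higher on the deposited values had corrected log2 fold changes above 0, down to 0.21 for SETD2. They were selected as higher in the same values, so this shared sign is not a separate test. The adjusted p threshold was no longer passed by SETD2 (limma adjusted p 0.243), CHD9 (0.131), KDM5A (0.0372) and CHD6 (0.0155). KMT2A, KMT2C, KAT6B, PBRM1 and TET3 passed it below the fold minimum, from 0.88 for PBRM1 to 0.99 for KAT6B.

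Lower calls were 3 after that correction, and only KMT2B was shared, at -1.66 (limma adjusted p 0.00129). KAT2A stood at -0.96, SMARCA4 at -0.97, SMARCB1 at -0.94 and HDAC3 at -0.66, each with a limma adjusted p under the threshold and a change just below or below 2-fold. CHD8 at -1.28 (limma adjusted p 0.00779) and HDAC2 at -1.19 (limma adjusted p 0.00268) were called only there, and the canonical transcript of HDAC2 has 9737 nt. The change of the KMT2A/KMT2B log2 ratio was 2.56 after the correction and that of KAT2A/KAT2B was -2.02. That of KDM6A/KDM6B was 1.54, that of CHD8/CHD7 -1.38 and that of SMARCA2/SMARCA4 0.93. These pairs were the largest before the correction. The change of HDAC1/HDAC2 went from 0.24 to 1.59 with the correction, above that of KDM6A/KDM6B.

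On the TPM scale, where the median of all genes lies at 0.59, 33 members were called higher and only KMT2B lower, at -1.05. KAT2A, SMARCA4, SMARCB1 and HDAC3 remained below 0, at -0.68, -0.40, -0.35 and -0.35.

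Positions are those of GENCODE on hg38. Of the members called lower, KMT2B lies on chromosome 19 from 35717973 to 35738880, KAT2A on chromosome 17 from 42113111 to 42121367, HDAC3 on chromosome 5 from 141620876 to 141636849, SMARCA4 on chromosome 19 from 10960932 to 11079426 and SMARCB1 on chromosome 22 from 23786931 to 23838009. Of those with the largest rises, ASH1L lies on chromosome 1 from 155335268 to 155563162, KMT2E on chromosome 7 from 104940943 to 105115019 and EP300 on chromosome 22 from 41092592 to 41180077. Some members share their locus with another protein-coding gene, and whether strand was used in the counting is not given in the sources used here. KMT2B overlaps IGFLR1, SMARCB1 overlaps DERL3, PBRM1 overlaps UQCC5 and GNL3, KMT2E overlaps SRPK2 and KDM5A overlaps CCDC77, so reads of these neighbours may be counted with them. KAT2A overlaps ENSG00000267261 on the same strand and KMT2A overlaps ENSG00000285827, both listed as protein-coding without a symbol. No protein-coding overlap was listed for KDM6A, EP300, ASH1L, KAT2B or SMARCA4. KDM6A also has a homolog on the Y chromosome with a similar sequence, which could share reads.

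A list of 169 other genes of the same complexes and families, of which 165 passed the filter, is set beside the members. Of these 165, 14 were called higher and 21 lower, and their median on the log2 scale was -0.15. They are shorter, at a median of 3993 nt, and their calls also went with length: of 83 under 4000 nt, 0 were called higher and 19 lower (5.90% and 20.8% of all genes of that length), and of 20 with 8000 nt or more, 8 were called higher and 0 lower (44.3% and 2.56% of all genes). Of the 62 from 4000 to 8000 nt, 6 were called higher and 2 lower, beside 26.9% and 4.55% of all genes there. Below 8000 nt, higher calls were thus rarer than among all genes of the same length. The other shares lay near those of all genes.

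**Figure D5:**
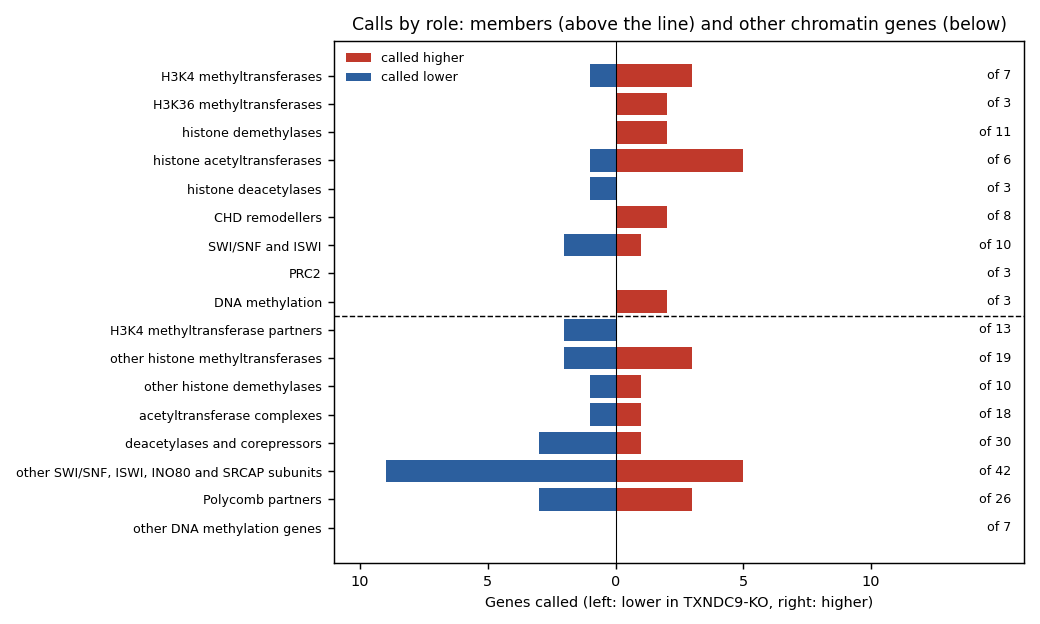
Number of genes called lower (left, blue) and higher (right, red) in TXNDC9-KO in each role, for the 54 members above the dashed line and the other chromatin genes below it, with the number tested at the right. Acetyltransferases have 5 of 6 members higher, and the subunits of SWI/SNF, ISWI, INO80 and SRCAP complexes have 9 of 42 lower and 5 higher. Of all tested genes, 14.2% were called higher and 15.3% lower.

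Of 13 partners of the H3K4 methyltransferases, 0 were called higher and 2 (15.4%) lower, beside 14.2% and 15.3% of all tested genes. PAGR1, a subunit of the KMT2C and KMT2D complexes, stood at 52.5 and 60.3 FPKM in WT and at 22.1 and 24.1 FPKM in the KO libraries (log2 fold change -1.28, limma adjusted p 0.000623), and CXXC1, which brings SETD1 complexes to CpG islands, had a log2 fold change of -1.08. RBBP5 and WDR82, core subunits, had log2 fold changes of 0.68 and 0.70, under 2-fold. Among other methyltransferases, SETD5 (1.81) and SETDB2 (1.23) rose, and the H3K9 methyltransferase EHMT2 (-1.62) and the arginine methyltransferase PRMT1 (-1.11) fell.

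Among other demethylases, 1 of 10 was called higher and 1 lower (10.0% each), beside 14.2% and 15.3% of all tested genes. KDM1B (1.34) rose and JMJD6 (-1.32) fell, while KDM4C (0.78) and KDM8 (-0.70) were not called. In acetyltransferase complexes, 1 of 18 was called higher and 1 lower (5.56% each). The large scaffold TRRAP (1.14) rose and SGF29 (-1.49), a SAGA subunit that reads H3K4 methylation, fell. KAT7 (0.69) and TADA3 (-0.83) were not called. Among deacetylases and corepressors, 1 of 30 was called higher (3.33%) and 3 lower (10.0%). HDAC4 (1.07) rose, and MBD3 (-1.33), MTA1 (-1.27) and SAP18 (-1.08) fell. NCOR1, the partner of HDAC3, had a log2 fold change of 0.98 and was not called.

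Of 42 other remodeller subunits, 5 (11.9%) rose and 9 (21.4%) fell, beside 14.2% and 15.3% of all tested genes. SRCAP, the ATPase that loads the histone variant H2A.Z, was at 2.85 and 1.54 FPKM in WT and at 22.2 and 23.2 FPKM in the KO libraries. Its log2 fold change of 3.38 (SE 0.27, limma adjusted p 0.000542) was larger than that of any of the 54 members. DMAP1, a small subunit of the same complex, went the other way, from 153 and 165 FPKM to 40.5 and 43.4 FPKM (log2 fold change -1.92, SE 0.11, limma adjusted p 0.000487). BAZ2B (2.49), of the ISWI family of complexes, rose from 0.433 and 0.579 FPKM to 3.17 and 3.39 FPKM and passed the filter only through its KO values, and the SWI/SNF subunit BCL7C (-1.65) fell.

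Of 26 Polycomb partners, 3 were called higher and 3 lower, 11.5% each, near the shares of all tested genes. ASXL2 (2.36) and PHC3 (2.03) rose, and PCGF1 (-1.44) and PCGF2 (-1.17), small subunits of PRC1 complexes, fell. None of the 7 other DNA methylation genes was called, the largest log2 fold changes being 0.67 for DNMT3B, 0.66 for TDG and -0.33 for MBD4. Of the rises named from these lists, SETD5, SRCAP, BAZ2B and ASXL2 were also called after the correction for length and base composition. SETDB2, SETD7, KDM1B, TRRAP, HDAC4 and PHC3 were not. Of the falls, PAGR1, EHMT2, MBD3, SAP18 and DMAP1 were also called, and CXXC1, PRMT1, JMJD6, SGF29, MTA1, BCL7C, PCGF1 and PCGF2 were not.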

How the data were processed

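Polyadenylated RNA of 2 wild-type and 2 TXNDC9 knockout libraries was sequenced on an Illumina instrument. TopHat2 had been used by the authors for alignment to hg38, with an Ensembl annotation and known junctions only, and the deposited FPKM of each gene in each library had been computed with Cuffdiff of the Cufflinks suite. The sources used here give no tool versions, no library normalization and no use of strand. Low FPKM values of 2 libraries shared no common step worth 1 read, so no counts were recovered. The deposited columns of the authors' own comparison (log2 fold change, p-value and q-value) were not used.

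The table had 231916 lines, of which 57979 held values. Identifiers occurred 4 times each and out of register, and were put back in order. Members were matched by gene symbol (54 of 54, each symbol on 1 line). Positions, overlaps, transcript lengths and base composition came from GENCODE release 44, which held 56935 of the identifiers.

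Genes with an average above 1 FPKM (13246) entered limma 3.58.1 (R 4.3.3) as log2(FPKM + 0.1) in all 4 libraries, the prior variance following a trend, and p-values adjusted by Benjamini-Hochberg over every tested gene. Calls required an adjusted p under 0.01 and at least a 2-fold change. Fold changes on this scale understate those of low genes. The steps were tested on simulated data. The alternatives were pseudocounts of 1 and 0.01, an average above 5 FPKM or no filter, TPM, centring on the median, no trend, a replicate block, an adjusted p under 0.05, no fold minimum, a loess curve of length and base composition removed from each library (span 0.3, degree 1) with and without the block, and leaving out each library. A group left with 1 library was assumed to vary like the other group.

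The members and lists were chosen with earlier results of these data known. Values per library are given for every member called lower, for the members of each role with the largest rise, the largest fall and the change closest to 0, and for both genes of the 5 paralog pairs whose fold changes differed most, 29 members in all. Of each list of other chromatin genes, the 2 largest rises and falls are named, except 1 gene that is not reported here. Other genes were named after seeing their values. Tables and plots were made with matplotlib 3.10.9, numpy 2.4.6, pandas 2.3.3, scipy 1.17.1 and Python 3.11.15.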

Additional observations from a re-analysis of the deposited data

How the results depend on the processing

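The numbers of members called, 17 higher and 5 lower, changed by less than 1.5 times with either other pseudocount, without the filter, after centring, without the trend, at an adjusted p under 0.05 and with the replicate block. They were 10 higher above an average of 5 FPKM (46 members tested), 33 higher and 1 lower in TPM, 26 higher without the fold minimum, 8 higher and 3 lower after the length and base composition correction, and 6 higher and 3 lower with that correction and the replicate block. Leaving out 1 library gave 0 to 22 higher and 0 to 5 lower. The members' median log2 fold change of 0.60 became 0.55 with a pseudocount of 1, 0.45 above an average of 5 FPKM, 1.27 in TPM, 0.45 after centring, 0.19 after the correction with or without the block, and 0.57 to 0.74 without 1 library. Over all genes, 48.3% of calls were higher, against 90.7% in TPM (4380 higher, 447 lower) and 35.8% after centring, and the correction left 836 higher and 1012 lower. Of the other chromatin genes, 14 were called higher and 21 lower. These counts became 9 higher with a pseudocount of 1, 9 higher above 5 FPKM, and 51 higher and 1 lower in TPM. Without the fold minimum they were 35 higher and 50 lower. After the correction, with or without the block, they were 5 higher and 15 lower. Some of these 15, such as NCOA6 and PCGF5, were called only there. The cause of these changes was not tested, except that fewer genes entered the stricter filter and fewer libraries the fits without 1 library.

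Some signs turned. In TPM the log2 fold change was 0.12 for TXNDC9, 0.060 for CHD8, 0.52 for DNMT1, 0.64 for HDAC2, 0.55 for KDM2B and 0.57 for SETD1A. After centring it was -0.030 for CHD1, -0.11 for EZH2 and -0.12 for KDM3A. After the correction, with or without the block, it was -0.28 for ARID1B, -0.94 for CHD1, -0.050 for EZH2, -0.53 for KDM3A, 0.063 for SETD1A and -0.039 for SMARCA2. Signs also turned in other members. After centring these were KDM4B and EED, and 36 members lay above 0, beside 41 on the deposited values. In TPM these were KDM1A (0.56), CHD3 (from -0.52 to 0.16) and CHD4 (from -0.35 to 0.33), and after the correction KDM2A (-0.06), KDM5B (from 0.46 to -0.47), CHD2 (from 0.69 to -0.14), SMARCA5 (from 0.34 to -0.69) and ARID2 (from 0.45 to -0.56). Over the fits without 1 library it ran from -0.25 (without WT replicate 1) to 0.30 for KDM3A, from -0.15 to 0.070 (without WT replicate 2) for HDAC2, from -0.057 (without TXNDC9-KO replicate 1) to 0.81 for KDM6B, and from -0.062 (without TXNDC9-KO replicate 2) to 0.13 for EZH2. The replicate block left the same 17 members called higher and the same 5 lower of all 54. Libraries of the same number did not deviate together (r = -0.0904 across genes, 2 pairs), so the numbers are not taken as a pairing. No outlying library could be looked for with 2 in a group.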
